A study of Mus musculus with 8 samples.

Results

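The genes described here are 10 mouse genes of thyroglobulin uptake and breakdown: the endocytic receptors Lrp2 (megalin) and Cubn (cubilin), the lysosomal membrane protein Lamp1, and the lysosomal proteases Ctsb, Ctsl, Ctsk, Ctsh, Ctsz, Ctsd and Lgmn. They were chosen by symbol, and all 10 were among the 16119 genes of the deposited table of normalized counts, where symbols are in capitals (LRP2, CUBN, LAMP1, CTSB, CTSL, CTSK, CTSH, CTSZ, CTSD and LGMN). Bulk RNA of 8 libraries was measured, 2 in each of 4 groups, all from wild type C57BL/6 mice. Thyroid follicular cell organoids (TFCOs) are cystic epithelial structures grown from digested thyroid, the cells of a single gland plated together, in basement membrane extract. Both lines, mThy14 and mThy16, were taken at early passage and again at late passage, without further treatment, so the early and late groups hold the same lines. The expansion medium held R-spondin 3 conditioned medium, the TGFβ receptor inhibitor A83-01, the cAMP activator forskolin, EGF and FGF10. The other groups were thyroid tissue and, as unrelated tissue, lung tissue, neither of them cultured or treated. Organoids are enriched in epithelial cells, whereas the tissues also hold stromal, vascular and blood cells, and no age is given in the labels.

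Thyroglobulin is the large glycoprotein on which thyroid hormone is made. Follicular cells store it in the lumen, take it back up across their apical membrane and degrade it, in part outside the cell and mostly in endosomes and lysosomes, which frees the hormones T4 and T3. Megalin and cubilin are large apical receptors that bind many ligands, and megalin binds thyroglobulin. Cathepsins B, K, L, H and Z are cysteine proteases of the papain family, cathepsin D is an aspartic protease, and legumain cleaves after asparagine and also matures other cathepsins. LAMP1 is a heavily glycosylated protein of the lysosomal membrane.

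Between 9755081 and 16904865 reads per library were recovered on genes, from values that were whole multiples of one step per library. The libraries were divided into 2 sets that cut across the groups, a split known from earlier results of these data. No label gives these sets, and counts for other splits are not given here. The first set was the 4 TFCO libraries and thyroid tissue 1, and the second was thyroid tissue 2 and both lung tissues. Genes absent from the first set (0 in each library) but at 50 or more throughout the second numbered 16, genes with the opposite pattern numbered 44, and 0 of the 10 genes were among either. TFCOs can be compared within a set only with thyroid tissue 1, and lung tissue only with thyroid tissue 2, so a fit with the set as a term, which makes these within-set comparisons, was added. In that fit TFCOs and lung are linked only through the thyroid tissues, 1 in each set. The set difference is then that between thyroid tissues 1 and 2, and each of them is fitted exactly. The spread comes from the TFCO lines and lung tissues only, so p-values of this fit assume that thyroid tissue varies like these. The 6 follicular cell markers summed to between 20807 and 170247 normalized counts in TFCOs, between 1554967 and 2220185 in thyroid tissue, and at most 2932 in lung tissue. The 6 fibroblast markers summed to between 91.6 and 247 in TFCOs and between 22583 and 38732 in the tissues, and Lum was at 0 in every TFCO library. The thyroid tissues also held parathyroid and skeletal muscle markers, with sums of 28114 and 55914 for the former and 38662 and 117180 for the latter, against at most 107 and 2509 in a TFCO library. In bulk RNA, fewer cells of a type and less RNA per cell cannot be told apart.

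The 10 genes spanned more than 3 orders of magnitude. Compared per kilobase of the longest coding transcript of each gene, the median normalized count over the 4 TFCO libraries was highest for Ctsh at 3628, followed by Ctsb at 2422, Lamp1 at 1832, Lgmn at 1322 and Ctsz at 928. The ranges of these 5 genes over the TFCO libraries overlapped between neighbours in this order. Lrp2 at 83.4 and Ctsl at 82.6 formed a middle pair, and Ctsk at 3.57, Ctsd at 2.65 and Cubn at 0.998 lay near the lower end. Per kilobase, the order in the second set differed most in Ctsd, which was the highest of the 10 genes in thyroid tissue 2 at 7944 and lay at 5833 and 4259 in the lung tissues. Scaling by length fits a library of whole transcripts, which the study's methods describe, and not the 3' end tagging that the labels describe, so the order between genes depends on which applies.

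**Figure D1:**
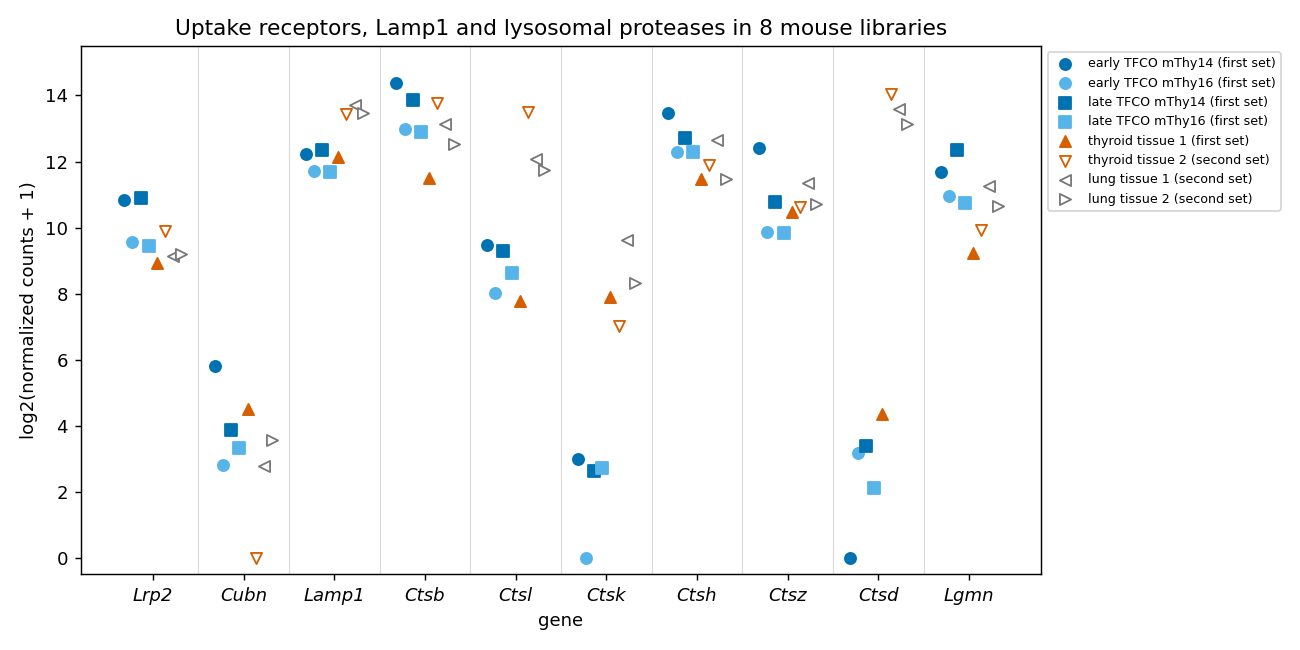
Levels of the 10 genes in each of the 8 libraries, as log2(normalized counts + 1) on the vertical axis, with filled symbols for the first set of libraries and open symbols for the second. Ctsd and Ctsl separate by set, with thyroid tissue 1 beside the TFCOs and thyroid tissue 2 beside the lung tissues, whereas Ctsk separates the 4 TFCO libraries from all 4 tissues.

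Lrp2 lies at chr2:69424340-69586065 on the minus strand (GRCm38, GENCODE M21). Early mThy14 and early mThy16 TFCOs held 1817 and 759.5 normalized counts of Lrp2, and late mThy14 and late mThy16 TFCOs held 1903 and 689.7. Thyroid tissues 1 and 2 held 481 and 948, and lung tissues 1 and 2 held 561 and 590.5. The mThy14 libraries stood above every other library, while the mThy16 libraries lay between the thyroid tissues. TFCOs therefore overlapped thyroid tissue, and the log2 fold change of 0.78 (SE 0.54) did not pass the test (limma, adjusted p = 0.444). Within the first set every TFCO library was above thyroid tissue 1, by a log2 fold change of 1.27 (SE 0.60, adjusted p = 0.374). Against lung tissue, Lrp2 was the 1 gene of the 10 that was higher in TFCOs without overlap, with a log2 fold change of 1.01 (SE 0.54, adjusted p = 0.188; 1.99 with the set as a term, SE 0.85, adjusted p = 0.318), where 34.4% of all 14703 genes tested were higher without overlap.

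Cubn, at chr2:13276338-13491813 on the minus strand, was close to the detection limit. TFCO libraries held 54.8 and 5.94 normalized counts at early passage (mThy14, then mThy16) and 13.5 and 8.94 at late passage, from 39, 6, 13 and 8 reads. Thyroid tissue 1 held 21.8, thyroid tissue 2 held 0, which allows up to 2.77 (3 counts, counting error only), and the lung tissues held 5.86 and 10.8. All groups overlapped, and no difference was detectable at this depth: TFCOs against thyroid tissue gave 1.69 (SE 1.59, adjusted p = 0.557), which turned to -0.57 (SE 0.95) within the first set and to 3.94 (adjusted p = 0.0375) without thyroid tissue 1, where the lone thyroid library is the one at 0.

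Among 14 further genes of receptor-mediated uptake that were listed with the 10 genes (binding partners, adaptors and other receptors of thyroglobulin or similar ligands), 13 were in the table. In TFCOs against thyroid tissue, 0 of the 13 were called higher and 2 lower, while 3.65% of all genes tested were called (0.599% higher and 3.05% lower). Lrp1, a relative of megalin widely expressed in fibroblasts and macrophages, held 221, 151, 161 and 152 normalized counts in the TFCO libraries, against 2222 and 1124 in thyroid tissue and 3404 and 2314 in lung tissue. Every TFCO library lay below every tissue, and the log2 fold change of Lrp1 was -3.22 (SE 0.44, adjusted p = 0.0133), and -3.71 within the first set (SE 0.38, adjusted p = 0.0352). Mrc1, the macrophage mannose receptor, held between 0 and 11.2 in TFCOs, 179 and 357 in thyroid tissue, and 1568 and 1155 in lung tissue. Its log2 fold change against thyroid tissue was -5.79 (SE 0.86, adjusted p = 0.017). It stayed about as large at -5.29 within the first set (SE 1.01, adjusted p = 0.0859) and -6.00 with voom (adjusted p = 0.0541), although the call was lost there and without thyroid tissue 2 (adjusted p = 0.0894), lung tissue 1 (0.0757) or lung tissue 2 (0.0739).

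Of this list, 3 genes were called higher in TFCOs than in lung tissue and 4 lower, beside 9.83% and 13.5% of all genes tested. Amn (amnionless, the membrane partner of cubilin) held 87.1, 48.5, 60.4 and 62.6 in the TFCO libraries against 5.03 and 0.674 in lung tissue, a log2 fold change of 4.34 (SE 1.23, adjusted p = 0.0454). Amn was also low in thyroid tissue, at 16.3 and 1.84, and all 4 TFCO libraries were above both. Asgr1, a subunit of the asialoglycoprotein receptor, was 3.26 higher (SE 0.92, adjusted p = 0.045) and the clathrin adaptor subunit Ap2a1 was 1.80 higher (SE 0.53, adjusted p = 0.0498). With totals equalised after removal of Tg, all 3 calls were lost (adjusted p between 0.0502 and 0.0621). Those of Asgr1 and Ap2a1 were also lost without the filter on low values, without a trend, with voom and without either early TFCO library. None of these 3 calls held with the set as a term. There the difference was smaller for Amn, at 1.73 (SE 1.34, adjusted p = 0.597), and for Ap2a1, at 0.25 (SE 0.49, adjusted p = 0.85), but larger for Asgr1, at 4.52 (SE 1.69, adjusted p = 0.259). The genes called lower were Lrp1 at -4.05 (SE 0.44), Mrc1 at -8.20 (SE 0.86), Dab2 at -4.18 (SE 0.85), which encodes a clathrin adaptor that binds megalin, and Eea1, of early endosomes, at -1.45 (SE 0.40). With the set as a term Lrp1 was still called, at -5.03 (SE 0.54, adjusted p = 0.0439). Mrc1 at -7.20 (SE 1.43, adjusted p = 0.0913) and Dab2 at -3.67 (SE 1.62, adjusted p = 0.334) stayed about as large without passing, and Eea1 was -0.67 (SE 0.48, adjusted p = 0.557). Without lung tissue 1 or lung tissue 2, the calls of Amn, Asgr1, Ap2a1 and Dab2 were lost, with adjusted p between 0.117 for Dab2 and 0.246 for Amn.

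Asgr1 separated thyroid from lung tissue. Thyroid tissues 1 and 2 held 1476 and 3530 normalized counts against 102 and 57.3 in lung tissues 1 and 2, a log2 fold change of 4.88 (SE 0.92, adjusted p = 0.0297). In TFCOs it differed by line, at 1213 and 3344 in early and late mThy14 and 305 and 245 in early and late mThy16. With thyroid tissue 2 alone, within the second set, the difference from lung was 5.51 (SE 1.19, adjusted p = 0.0688), so the difference was as large and the call was lost. The call was also lost without a trend (adjusted p = 0.0662), with voom (0.0892) and without early mThy14 (0.052). It was lost as well without either thyroid tissue or either lung tissue, where the difference ran from 4.25 to 5.51.

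Ctsb, at chr14:63122462-63145923 on the plus strand, encodes an endopeptidase and carboxypeptidase of the lysosome. Early mThy14 and early mThy16 TFCOs held 21322 and 8128 normalized counts, and late ones held 14840 and 7613. Thyroid tissues 1 and 2 were 4.88-fold apart, at 2894 and 14108, and the lung tissues held 8929 and 5927. The 4 TFCO libraries lay above thyroid tissue 1 and on both sides of thyroid tissue 2. TFCOs against thyroid tissue gave 0.89 (SE 0.82, adjusted p = 0.551), which became 2.03 within the first set (SE 0.62, adjusted p = 0.201) and -0.25 without thyroid tissue 1. Neither value passed the test.

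Ctsh, at chr9:90054152-90076089 on the plus strand, encodes an aminopeptidase of the lysosome that is also abundant in type II alveolar cells of the lung. It was at 11317 and 4984 normalized counts in early TFCOs and at 6750 and 4959 in late TFCOs, in the order mThy14, mThy16. The thyroid tissues held 2849 and 3785, close to each other and below every TFCO library, and the lung tissues held 6467 and 2856. The log2 fold change of 1.01 over thyroid tissue (SE 0.54) did not pass the test (adjusted p = 0.352), and it was 1.21 within the first set (SE 0.63).

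Ctsz, at chr2:174427493-174439039 on the minus strand, encodes a carboxypeptidase. Its normalized counts were 5410 and 1753 in mThy14 at early and late passage, and 922 and 913 in mThy16. The thyroid tissues held 1423 and 1588 and the lung tissues 2619 and 1670. A single library, early mThy14, stood above all tissues, late mThy14 was just above thyroid tissue, and both mThy16 libraries were below it. The log2 fold change of 0.16 over thyroid tissue (SE 0.58, adjusted p = 0.891) was 0.24 within the first set (SE 0.77, adjusted p = 0.919) and turned to -0.24 without early mThy14, to -0.10 after quantile normalization and to -0.083 with totals equalised after removal of Tg.

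Lgmn, at chr12:102394084-102439813 on the minus strand, encodes the asparaginyl endopeptidase. Normalized counts were 3262 and 1998 in early mThy14 and early mThy16 TFCOs, and 5179 and 1722 in the late ones. The thyroid tissues held 599 and 965, and the lung tissues held 2424 and 1598. All 4 TFCO libraries were above both thyroid tissues, and thyroid tissue was below both lung tissues. The log2 fold change over thyroid tissue was 1.86 (SE 0.50, adjusted p = 0.103), and 2.20 within the first set (SE 0.57, adjusted p = 0.152). It passed the threshold when the 4 TFCO libraries were entered as separate samples (adjusted p = 0.0368), a fit that counts each line as 2 samples. Thyroid tissue against lung tissue gave -1.37 (SE 0.50, adjusted p = 0.159), and -1.03 with thyroid tissue 2 alone. TFCOs overlapped lung tissue.

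Ctsk, at chr3:95499256-95509362 on the plus strand, encodes the collagen-degrading protease known best from osteoclasts and also made by fibroblasts and thyroid epithelium. TFCOs held 7.03 and 0 normalized counts at early passage (mThy14, then mThy16) and 5.20 and 5.59 at late passage, from 5, 0, 5 and 5 reads, where 0 reads allow up to 2.97. The thyroid tissues held 236 and 128, and the lung tissues held 791 and 315. Every TFCO library was below every tissue, in both sets of libraries. On the log2(normalized counts + 1) scale, Ctsk fell in TFCOs against thyroid tissue, by a fold change of -5.36 (SE 0.86, adjusted p = 0.0217), and against lung tissue, by -6.88 (SE 0.86, adjusted p = 0.00395).

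Ctsk was the 1 gene of the 10 called in TFCOs against thyroid tissue. The fold was as large within the first set, at -5.80 (SE 0.94), but its adjusted p there was 0.0637, and it was 0.107 with voom and between 0.0659 and 0.0885 without thyroid tissue 2 or either lung tissue. Against lung it was 0.0715 with the set as a term and 0.072 without lung tissue 1. Markers of other cells moved with it. All 6 fibroblast markers were called lower in TFCOs, with and without the set term, and their sum was between 91.6 and 247 against 29602 and 25237 in thyroid tissues 1 and 2. The 8 macrophage and leukocyte markers summed to 42.2 and 48.9 in early and late mThy14, 967 and 1052 in early and late mThy16, of which Cd14 made 899 and 978, and 1531 and 3387 in thyroid tissue. All 8 had negative fold changes and 4 were called. Against thyroid tissue, of the 4 parathyroid and the 4 skeletal muscle markers, 3 each were called lower in that comparison, with and without the set term. Between the thyroid tissues, Ctsk and the fibroblast sum were higher in tissue 1, while the leukocyte, parathyroid and skeletal muscle sums were higher in tissue 2. In lung tissue Ctsk and the leukocyte and endothelial sums were highest, and the parathyroid and skeletal muscle sums lowest. The fibroblast sum did not follow Ctsk there. Among the tissues it was lowest in lung tissue 1, at 22583, and highest in lung tissue 2, at 38732, while Ctsk was higher in lung tissue 1. Most of the skeletal muscle sum of TFCOs was Acta1, at 1796 to 2442. Against lung tissue, 2 of the 4 skeletal muscle markers were called higher in TFCOs and 1, Ckm, lower. The part of these cells in the difference in Ctsk was not tested.

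**Figure D2:**
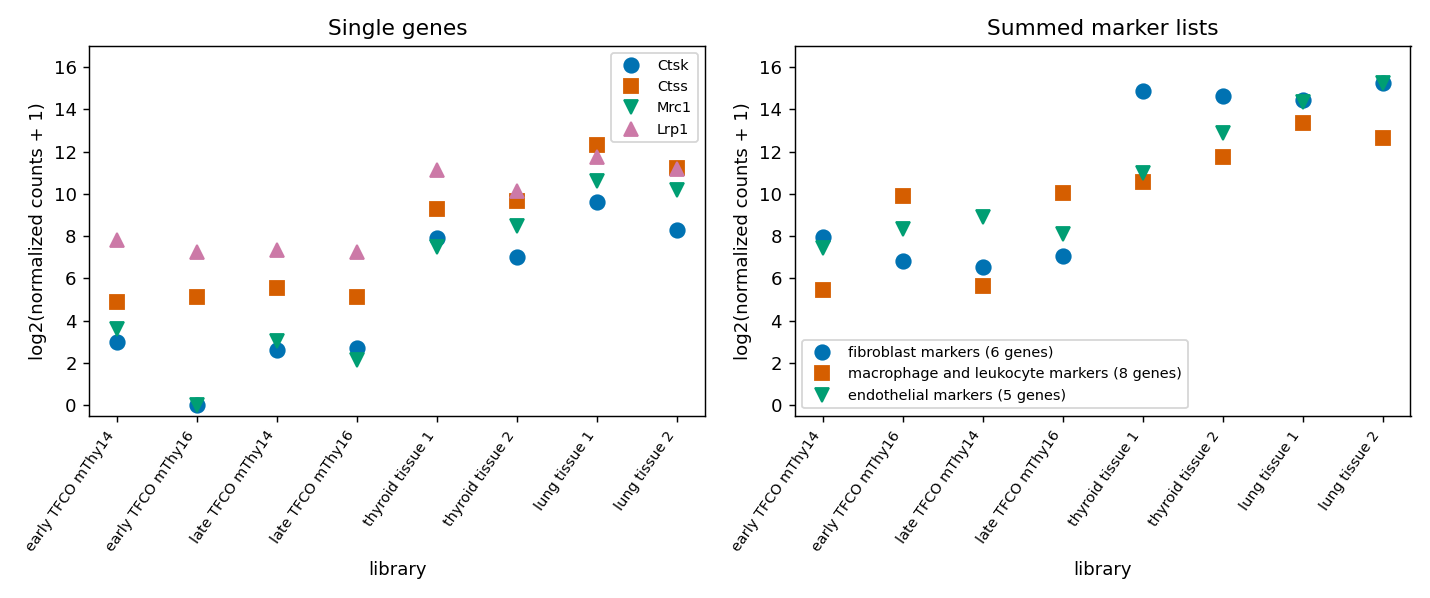
Levels of Ctsk, Ctss, Mrc1 and Lrp1 (left) and summed levels of the fibroblast, macrophage and leukocyte, and endothelial marker lists (right) in the 8 libraries, as log2(normalized counts + 1). The 4 genes and the fibroblast and endothelial sums lie lower in all 4 TFCO libraries than in all 4 tissues. The leukocyte sum of late mThy16 is 1052, of which Cd14 alone makes 978, against 1531 in thyroid tissue 1.

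Of 13 other lysosomal and endosomal proteases listed, 0 were called higher in TFCOs than in thyroid tissue and 1 lower, beside 0.599% and 3.05% of all genes, with a median log2 fold change of 0.25, against 0.046 for all genes tested. That gene was Ctss, a cysteine protease of antigen-presenting cells, which held 28.1, 33.7, 45.8 and 33.5 normalized counts in the TFCO libraries. Thyroid tissue held 618 and 816, and lung tissue 5002 and 2418. Ctss fell by 4.32 from thyroid tissue to TFCOs (SE 0.46, adjusted p = 0.00688). Within the first set, against thyroid tissue 1 alone, the fall was 4.12. Ctss was also lower in thyroid tissue than in lung tissue, at -2.29 (SE 0.46, adjusted p = 0.0341), which stayed at -2.09 within the second set (SE 0.52, adjusted p = 0.0906) and was not called without lung tissue 1 or 2 (adjusted p = 0.341 and 0.157). It followed the same order of libraries as the leukocyte markers outside mThy16.

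Against lung tissue, 3 of these 13 proteases were called lower in TFCOs and 0 higher, beside 13.5% and 9.83% of all genes. Ctss was -6.61 (SE 0.46, adjusted p = 0.000546), Ctso was -3.19 (SE 0.70, adjusted p = 0.0242) and Prcp was -1.53 (SE 0.43, adjusted p = 0.0444). Ctso held 119, 122, 176 and 62.6 normalized counts in TFCOs and 116 in thyroid tissue 1, but 501 in thyroid tissue 2 and 1083 and 986 in lung tissue, so that it separated by set, and with the set as a term its difference was -1.09 (SE 0.64, adjusted p = 0.475). Prcp separated by set too, at 238 to 401 in the first set and 462, 977 and 893 in the second, and was -0.58 with the set as a term (SE 0.48, adjusted p = 0.624), its call being lost without a trend as well (adjusted p = 0.0852). Without either lung tissue the calls of Ctso and Prcp were lost, with adjusted p between 0.147 and 0.225. Ctss kept its call with the set as a term, at -6.21 (SE 0.73, adjusted p = 0.0454). Cpq, a carboxypeptidase thought to take part in releasing thyroxine from thyroglobulin, held 13965 and 8016 in thyroid tissue against 1351 and 1004 in lung tissue. Cpq was 3.18 higher in thyroid tissue than in lung tissue (SE 0.68, adjusted p = 0.0414), and 2.78 higher within the second set, where it was not called. The call was also lost without a trend (adjusted p = 0.0858) and without early mThy14 (0.0698) or early mThy16 (0.0508). It was lost as well without thyroid tissue 1 or either lung tissue. TFCOs of mThy14 held 5394 and 11370 at early and late passage and those of mThy16 held 2225 and 1709.

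Ctsl, Ctsd and Lamp1 followed the set of libraries rather than the group. In all 3, every library of the second set was above every library of the first, as in 20.3% of all genes tested, and 0 of the 10 genes showed the reverse, as 23.3% of all genes did. Thyroid tissue 2 was at least 4-fold above thyroid tissue 1 for Ctsd, Ctsl and Ctsb, as for 10.6% of all genes, and at least 4-fold below it for Cubn, as for 11.2%. Both tissues carry the same labels apart from their number, and animal and set cannot be told apart in the difference between them. Markers of some other cell types separated by the same sets. Higher in every library of the second set were 6 of the 8 macrophage and leukocyte markers and 4 of the 5 endothelial markers. So were 1 of the 6 fibroblast markers and 1 of the 6 lung markers, beside 20.3% of all genes. Of the 6 follicular cell, 4 parathyroid and 4 skeletal muscle markers, 0 were. Thyroid tissue 2 was 27.4-fold above thyroid tissue 1 for the macrophage gene C1qa, 10.8-fold for Pecam1 and 73.6-fold for Emcn, both of endothelium. The fold was smaller for Csf1r (1.38), Ptprc (1.56) and Kdr (2.02), and Cldn5 of endothelium went the other way (0.43). The list sums were 3387 against 1531 for leukocyte markers and 7580 against 2023 for endothelial markers. The part of these cells in the levels of Ctsl, Ctsd and Lamp1 was not tested.

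Ctsl, at chr13:64359337-64370890 on the minus strand, encodes an endopeptidase of the lysosome and nucleus. Within the first set it was at 709.8 and 260.4 normalized counts in early mThy14 and early mThy16, at 624 and 395 in late mThy14 and late mThy16, and at 217 in thyroid tissue 1. It was at 11476 in thyroid tissue 2 and at 4337 and 3400 in the lung tissues. The thyroid tissues were thus 53-fold apart, more than any TFCO library was from thyroid tissue 1. The log2 fold change of TFCOs over thyroid tissue was -1.77 (SE 1.58, adjusted p = 0.538) and turned to 1.09 within the first set (SE 0.51, adjusted p = 0.371), where every TFCO library was the higher. Without thyroid tissue 1 it was -4.63 (adjusted p = 0.00817). Thyroid against lung tissue likewise turned from -1.28 (SE 1.58, adjusted p = 0.643) to 1.58 (SE 0.51, adjusted p = 0.159) within the second set, and was -4.14 (adjusted p = 0.00916) without thyroid tissue 2. TFCOs against lung tissue gave -3.05 (SE 1.58, adjusted p = 0.173), called without thyroid tissue 1 or 2 (adjusted p = 0.00504 and 0.00531), and 2.67 (SE 0.72, adjusted p = 0.147) with the set as a term. The direction of Ctsl thus changed with the set as a term in all 3 comparisons between groups. All 3 changes come from the same difference between thyroid tissues 1 and 2 and are not separate results. That difference also enters the SE of 1.58 in TFCOs against lung tissue, as the spread is pooled over the groups.

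Ctsd, at chr7:142375911-142388038 on the minus strand, encodes the major aspartic protease of lysosomes. Within the first set it was at 0 and 7.92 normalized counts in early mThy14 and early mThy16, at 9.37 and 3.35 in late mThy14 and late mThy16, and at 19.6 in thyroid tissue 1, from 0, 8, 9, 3 and 18 reads, where the 0 allows up to 4.22. It was at 16898 in thyroid tissue 2 and at 12408 and 9058 in the lung tissues. The thyroid tissues were 862-fold apart, and no library lay between. TFCOs against thyroid tissue gave -7.04 (SE 2.61, adjusted p = 0.215), and -2.20 within the first set (SE 0.54, adjusted p = 0.136), from these few reads. Without thyroid tissue 1 it was -11.88 (adjusted p = 0.00527).

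The call of Ctsd in TFCOs against lung tissue, at -11.21 (SE 2.61, adjusted p = 0.0286), compares libraries of different sets. With the set as a term it was -1.53 (SE 0.76, adjusted p = 0.394), and the call was also lost without a trend (adjusted p = 0.0605), with voom (adjusted p = 0.179) and without lung tissue 1 or 2 (adjusted p = 0.155 and 0.144). Thyroid against lung tissue was -4.17 (SE 2.61, adjusted p = 0.383), turned to 0.67 within the second set, and was -9.01 (adjusted p = 0.00589) without thyroid tissue 2. Of the 50-base stretches in the annotated transcripts of Ctsd, 32.35% also occurred in Gm49369, an overlapping gene on the same strand that had no entry under that name in the table, so reads of these could have been assigned to either or to none. For Ctsl the share was 6.46%, with the pseudogene Gm49230 inside it, and for the other 8 genes it was at most 0.09%. Lamp1, Ctsb and Ctsz overlap Grtp1, Fdft1 and Nelfcd on the opposite strand at their ends.

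Lamp1, at chr8:13159161-13175338 on the plus strand, was at 4839 and 3329 normalized counts in early mThy14 and early mThy16, at 5163 and 3257 in late mThy14 and late mThy16, and at 4538 in thyroid tissue 1. It was at 11012 in thyroid tissue 2 and at 13343 and 11427 in the lung tissues. Thyroid tissue 1 lay within the range of the TFCOs and thyroid tissue 2 just below the lung tissues. TFCOs against thyroid tissue gave -0.80 (SE 0.56, adjusted p = 0.442) and -0.16 within the first set (SE 0.42). Against lung tissue the difference was -1.61 (SE 0.56, adjusted p = 0.0717), which passed with the 4 TFCO libraries as separate samples (adjusted p = 0.0132) and without thyroid tissue 1 or 2 (adjusted p = 0.019 and 0.0157), and was -0.33 (SE 0.60, adjusted p = 0.841) with the set as a term.

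Many lysosomal genes carry the sequence CACGTG near their start, which the transcription factors TFEB, TFE3 and MITF bind. It was searched, together with the related TCATGTG, on both strands of the 250 bases before the RefSeq start (GRCm38.p6), where 9 promoters of 8 of the 10 genes were given, those of Ctsb and Ctsh not among them. CACGTG reads the same on both strands, and a match of one motif is never a match of the other. It occurred in 4 promoters of 4 genes, the 3 that separated by set and Lgmn, and in 6.02% of 32851 mouse promoters, while TCATGTG occurred in 0 of the 9 and in 3.25% of all. The other promoter given for Lgmn, at its upstream start, had no match. A match alone does not show binding, and whether these factors had a part in the levels was not tested. They are written 5' to 3' on the strand of the gene, with CACGTG in capitals.
Lamp1, chr8:13159088-13159160, plus strand: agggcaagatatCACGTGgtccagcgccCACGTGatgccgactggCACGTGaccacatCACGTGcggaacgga
Ctsd, chr7:142388055-142388077, minus strand: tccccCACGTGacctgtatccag
Ctsd, chr7:142387908-142387937, minus strand: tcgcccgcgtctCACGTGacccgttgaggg
Ctsl, chr13:64370739-64370768, minus strand: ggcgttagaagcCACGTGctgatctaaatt
Lgmn, chr12:102439124-102439153, minus strand: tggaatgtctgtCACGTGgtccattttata

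The 4 matches of Lamp1 lie between 15 and 61 bases before its start, outside any gene of GENCODE M21. Those of Ctsd lie 245 and 98 bases before its RefSeq start, the nearer one inside an annotated untranslated exon and the farther one outside any annotated gene. The match of Ctsl, 236 bases before the start, also falls in an annotated untranslated exon, and that of Lgmn lies 49 bases before its second RefSeq start, within an intron of the longer gene model. The levels of the 3 factors are given as values. Tfeb held 476 and 353 normalized counts at early passage and 546 and 211 at late passage (mThy14, then mThy16), 807 and 548 in thyroid tissue and 317 and 359 in lung tissue. Tfe3 held between 679 and 877 in TFCOs, 1053 and 582 in thyroid tissue and 592 and 555 in lung tissue. Mitf was lower in TFCOs, at 68.9, 26.7, 3.12 and 88.3, than in any tissue, at 145 to 200.2. Its difference from lung tissue was called, at -2.62 (SE 0.72, adjusted p = 0.0429), and was as large at -2.74 with the set as a term, where it was not called (SE 1.13, adjusted p = 0.301). The call was also lost after quantile normalization (adjusted p = 0.13) and without any of 5 libraries in turn, among them late mThy14, without which it was -1.60 (adjusted p = 0.0804).

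The remaining lysosomal lists added few calls. Of 8 subunits of the proton pump that acidifies lysosomes, 0 were called against thyroid tissue, beside 3.65% of all genes, and 1 lower against lung tissue, beside 13.5%. This was Atp6v0c (adjusted p = 0.0397), which had 0 reads in all 4 TFCO libraries and 1 read in thyroid tissue 1 but 1457 normalized counts in thyroid tissue 2 and 1189 and 702 in lung tissue. Lung tissue was thus at least 167-fold higher than TFCOs, taking the lowest lung library against the highest floor of 3 counts in a TFCO library. This fold compares libraries of different sets, and the gene separated by set as Ctsd did. Thyroid tissue 2 was 1338-fold above thyroid tissue 1, with its 1 read. Of the 50-base stretches of Atp6v0c, 10.76% also occurred in other genes, with Atp6v0c-ps2 sharing the most. With the set as a term the call was lost (adjusted p = 0.887), as it was without a trend, with voom and without either lung tissue (adjusted p between 0.0738 and 0.192). None of 5 genes of mannose 6-phosphate tagging, which routes new proteases to lysosomes, was called in any comparison, and 0 had an unadjusted p under 0.05 between any groups. Of 8 other lysosomal membrane proteins 0 were called against thyroid tissue, and Lamp3, a marker of type II alveolar cells, was called lower against lung tissue, at 0 to 14.9 normalized counts in TFCOs against 11496 and 8197.

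Of the 3 cysteine protease inhibitors, Cst3 (cystatin C) and Cstb (stefin B) separated by set. Cst3 held 1275, 437, 2133 and 471 normalized counts in the TFCO libraries and 588 in thyroid tissue 1, but 8265 in thyroid tissue 2 and 8546 and 8061 in lung tissue. Cst6 (cystatin E/M) held 120 and 325 in thyroid tissue and 3.35 and 0 in lung tissue, a log2 fold change of 6.57 (SE 1.09, adjusted p = 0.0211), and 7.29 within the second set (SE 1.03, adjusted p = 0.0309). With voom its adjusted p was 0.0539, and without lung tissue 1 or 2 it was 0.124 and 0.202. In TFCOs Cst6 ranged from 2.08 to 70.3, below both thyroid tissues.

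Counted over the 10 genes, TFCOs against thyroid tissue gave 0 higher and 1 lower, beside 3.65% of all genes called, and 0 with the set as a term, beside 1.21%. Groups did not overlap for 4 of the 10, with Ctsh and Lgmn higher (17.2% of all genes) and Ctsk and Ctsd lower (17.3%). Within the first set alone, all 4 TFCO libraries were above thyroid tissue 1 for Lrp2, Ctsb, Ctsl, Ctsh and Lgmn, 5 of the 10 against 25.8% of all genes, and below it for Ctsk and Ctsd, as for 25.9% of all genes. The median log2 fold change of the 10 genes in TFCOs over thyroid tissue was 0.47, and 0.66 with the set as a term, against 0.046 and 0.022 over all genes tested.

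TFCOs against lung tissue gave 0 higher and 2 lower of the 10, Ctsk and Ctsd, where 23.4% of all genes were called (9.83% higher and 13.5% lower), and 0 with the set as a term, where 1.18% were. Ctsk, Ctsd, Ctsl and Lamp1 were lower without overlap, as were 33.3% of all genes. For thyroid against lung tissue 0 of the 10 were called, beside 6.05% of all genes (2.89% higher and 3.16% lower), and 1 had an unadjusted p under 0.05. Ctsk, Ctsz, Lamp1 and Lgmn were lower in thyroid tissue without overlap (27.5% of all genes) and 0 were higher (26.2%). With the set as a term 0 of the 10 were called, beside 5.64%. The comparisons with a tissue share its libraries, so their values are not independent of each other.

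**Figure D3:**
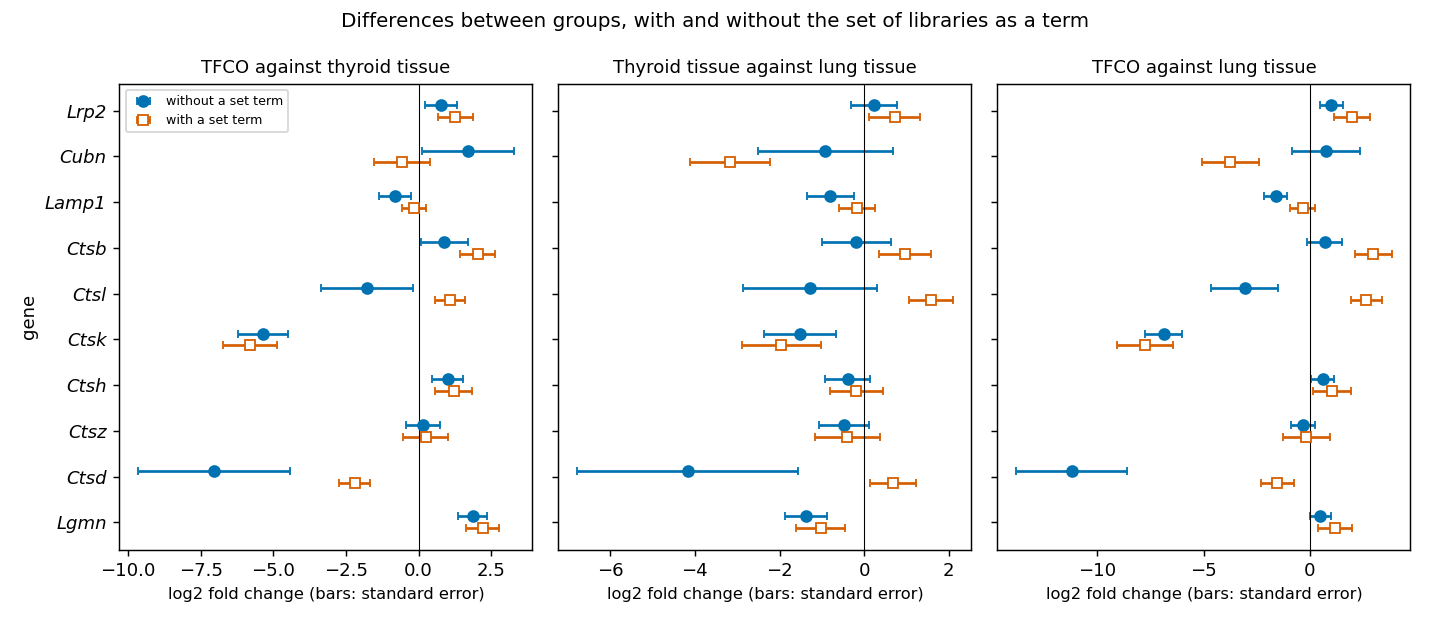
Log2 fold changes of the 10 genes in the 3 comparisons between groups, from limma on log2(normalized counts + 1), without (filled circles) and with (open squares) the set of libraries as a term; bars are standard errors. Ctsl changes sign in all 3 panels and Ctsd shrinks from -11.21 to -1.53 against lung, while Ctsk stays between -5.36 and -7.76 in the panels of TFCOs. For each gene, the shifts in all 3 panels come from the same difference between thyroid tissues 1 and 2.

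Between early and late passage, 0 of 14703 genes were called by limma (0% of all genes), with 166 at an unadjusted p under 0.05, among them 0 of the 10 genes. Genes called were also 0 with the line as a block. The spread in this fit is pooled over all groups. It includes the gap between thyroid tissues 1 and 2 and, without the block, that between the lines. The absence of calls therefore does not show that the passages are alike. No gene of the 10 had all late libraries above or below all early ones, against 11% and 12.4% of all genes. The mean log2 differences ran from -0.82 for Ctsz (SE 0.75) to 1.17 for Ctsk (SE 1.13) and Ctsd (SE 2.59), the latter pair from at most 9 reads per library. In mThy16, 6 genes, Lrp2, Lamp1, Ctsb, Ctsh, Ctsz and Lgmn, had late minus early differences between -0.22 for Lgmn and -0.01 for Ctsh, and Ctsl had 0.60. In mThy14 Ctsz differed by -1.63, Ctsh by -0.75 and Ctsb by -0.52, and Lgmn by 0.67. With 1 library per line and passage, the spread within a line at one passage is not known.

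**Figure D4:**
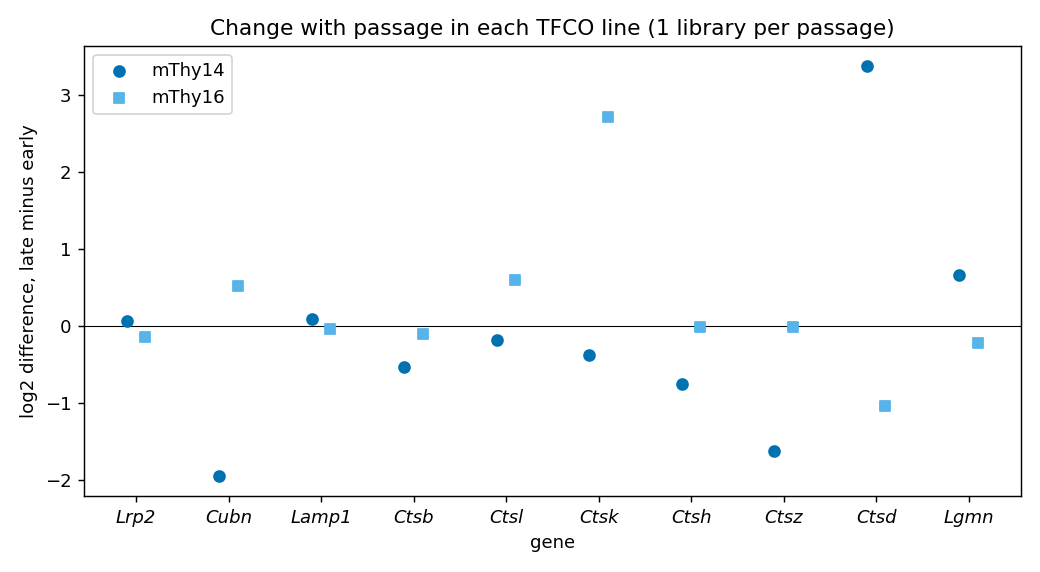
Late minus early difference in log2(normalized counts + 1) for each of the 10 genes, in mThy14 (circles) and mThy16 (squares), with 1 library per line and passage. Lrp2, Lamp1, Ctsb, Ctsh, Ctsz and Lgmn in mThy16 lie within 0.22 of 0, and the widest values belong to Cubn, Ctsk and Ctsd, which rest on few reads.

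Most of the 10 genes were higher in mThy14 than in mThy16. In 8 of the 10 genes mThy14 was above mThy16 at both passages, as in 35.1% of all genes tested, the exceptions being Ctsk and Ctsd with their few reads. For Lrp2 the ratio of mThy14 to mThy16 was 2.39 at early and 2.76 at late passage, and for Ctsb it was 2.62 and 1.95. The ratio was 5.87 and 1.92 for Ctsz, 1.63 and 3.01 for Lgmn, and 1.45 and 1.58 for Lamp1. The 6 follicular cell markers also differed, with sums of 170247 and 101549 in early and late mThy14 and 25563 and 20807 in early and late mThy16. As each line is 1 culture lineage, the line difference has no replicate beyond the repeat at the other passage and was not tested, and the part of the follicular cell markers in it was not tested.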

How the data were processed

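The authors deposited 1 table of normalized counts for 8 mouse libraries, a signal of reads per gene divided by 1 size factor per library. The authors' methods describe stranded polyA libraries, paired-end reads and DESeq2, the labels an adapted CEL-Seq library. The submitters' processing notes name BWA 0.6.2-r126 and the builds mm10 and hg38 without a role. The counting tool and annotation are not given in the sources used here. Every value above 0 was a whole multiple of the library's step within 0.02 reads, which gave the reads quoted.

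Groups came from the sample titles. log2(normalized counts + 1) was tested with limma 3.58.1 (R 4.3.3, eBayes with trend), with Benjamini-Hochberg adjustment at 0.05 over 14703 genes that reached 10 in 2 libraries or more, after a test on simulated data. TFCOs against tissues, and thyroid against lung, used 1 fit of 3 groups, with both passages of a line averaged. Late against early TFCOs used all 8 libraries in 4 groups. Precision is set by 2 samples per group, and since nothing states that the tissues came from separate animals, p-values measure only the spread between these samples, which may be technical. The spread is pooled over all groups of a fit. Without the set as a term, the gap between thyroid tissues 1 and 2 thus also enters the tests of TFCOs against lung tissue. Early and late libraries of a line pair by origin (r = 0.477 of their deviations over 14703 genes).

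The 10 genes, the pathway and marker lists and the tests were chosen with earlier results of these data known. Named genes were the 10 and, of each pathway list, up to 3 called in each direction by size of change. Eea1 is named as the last of 4. Genes named beyond this (Amn in thyroid tissue, Cst3, Cstb, Tfeb, Tfe3, marker genes) were chosen after their values were seen. Rab7 had no match by symbol in the table. The set of libraries as a term and voom on recovered reads were added after seeing the data. Coordinates and overlaps are from GENCODE M21 (GRCm38), promoters from RefSeq.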

Additional observations from a re-analysis of the deposited data

How the results depend on the processing

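With 2 samples per group, calls depended on the estimate of the spread, and 1 library decided many. Genes called in TFCOs against thyroid tissue numbered 536, and 1322 with the 4 TFCO libraries as separate samples, 178 with the set as a term and 232 with voom. Of the 10 genes, 1 was called, and 2, 0 and 0 in those fits. Against lung tissue 3435 became 6625 and 174 in the first and second of these, and the 2 of the 10 called became 0 with the set as a term, 1 without a trend and 1 with voom. Thyroid against lung tissue gave 889, and 1474 with a replicate block, with 0 of the 10 in both. The differences of tissue 2 from tissue 1 had r = -0.073 between thyroid and lung. The thyroid tissues lie in different sets and the lung tissues in the same one. This r therefore cannot show whether tissue numbers pair the animals. Late against early gave 0 with and without the replicate block, which changed no call of the 10. TFCOs and tissues share no replicate numbers.

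Leaving out 1 library, genes called ranged from 153 (without lung tissue 2) to 4085 (without thyroid tissue 1) in TFCOs against thyroid tissue, and were 161 without thyroid tissue 2 and 156 without lung tissue 1, with 0 to 4 of the 10 called. They ranged from 248 (without lung tissue 2) to 6986 (without thyroid tissue 1) against lung tissue, with 6979 without thyroid tissue 2, 319 without lung tissue 1 and 0 to 4 of the 10. For thyroid against lung tissue they ranged from 58 (without either lung tissue) to 4311 (without thyroid tissue 2), with 0 to 2 of the 10, Ctsl and Ctsd. For late against early they ranged from 0 to 2 (without late mThy16). A group left with 1 library is assumed to vary like the others.

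Directions reversed for TFCOs against thyroid tissue in Cubn (-0.57) and Ctsl (1.09) with the set as a term, and in Ctsz after quantile normalization (-0.10) and scaling to the same total without Tg (-0.0834). They reversed against lung tissue in Cubn (-3.74) and Ctsl (2.67), and for thyroid against lung tissue in Ctsb (0.96), Ctsl (1.58) and Ctsd (0.67), all with the set as a term. The cause was not tested.

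With 1 library left out, log2 fold changes of the genes that changed sign ranged as follows. For TFCOs against thyroid tissue, Cubn ranged from -0.57 to 3.94, Ctsb from -0.25 to 2.03, Ctsl from -4.63 to 1.09 and Ctsz from -0.24 to 0.57. Against lung tissue Ctsz ranged from -0.72 to 0.0913. For thyroid against lung tissue, Lrp2 ranged from -0.26 to 0.72, Cubn from -3.17 to 1.34, Ctsb from -1.33 to 0.96, Ctsl from -4.14 to 1.58, Ctsh from -0.98 to 0.20 and Ctsd from -9.01 to 0.67. For late against early TFCOs all 10 changed sign: Lrp2 from -0.77 to 0.69, Cubn from -2.22 to 0.79, Lamp1 from -0.30 to 0.36, Ctsb from -1.004 to 0.39, Ctsl from -0.51 to 0.93, Ctsk from -0.33 to 2.68, Ctsh from -0.97 to 0.22, Ctsz from -2.10 to 0.46, Ctsd from -0.41 to 2.75 and Lgmn from -0.57 to 1.02.

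The planned edgeR and DESeq2 fits were not run. Whole reads were recovered in all 8 libraries, but the step of early mThy16 (0.990) lay too near 1 to pass the criterion set for using recovered reads in count models, so voom on these reads was run in their place. Few reads limit Cubn, Ctsk and, in the first set, Ctsd.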

Other observations

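For each of the 10 genes, the genes whose profile over the 8 libraries was closest were found by the root mean square of the difference in centred log2 values, as a description with no test. Ctsz was closest to Grn, at 0.306 log2 units, which encodes the lysosomal protein progranulin, and to Hddc3, at 0.362. Ctsk was closest to Fcer1g at 0.621, which encodes a signalling chain of Fc receptors in leukocytes, and to Rasl12 at 0.693. Ctsd had no close match, the nearest being Rpl17 at 1.09, a ribosomal protein gene, and Atp6v0c at 1.15, which followed the 2 sets of libraries as Ctsd did. Ctsh was closest to Eef1b2 at 0.193 and Rps20 at 0.243, genes of translation. Lamp1 was closest to Taf11 at 0.14 and Cdc42se1 at 0.143, and Ctsl to Ipcef1 at 0.367 and the mitochondrial ribosomal RNA mt-Rnr2 at 0.438. Lrp2 was closest to Entpd6 at 0.189 and Gde1 at 0.24, Ctsb to Pctp at 0.188 and Sdc4 at 0.269, and Lgmn to Kcnk7 at 0.217 and Rps12 at 0.327. Cubn, with few reads, was closest to Chrna10 at 0.532 and Itgad at 0.538. With 8 points and 14703 genes, close profiles arise easily among genes with small differences.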
